A study of Arabidopsis thaliana with 9 samples.

Results

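The 95 probe sets described here had lower signals in cyp78a5,7 seedlings of Arabidopsis thaliana than in wild type, while amp1-13 seedlings stayed close to wild type. A probe set, the group of short probes on the array that reports 1 transcript, was taken when all 3 cyp78a5,7 arrays lay below all wild type and all amp1-13 arrays. In addition, its mean log2(signal + 16) had to lie at least 1 below wild type in cyp78a5,7 and within 0.25 of wild type in amp1-13. Of 22746 probe sets, 97 met these conditions, and the brassinosteroid-related gene BEE2 and the gene MARD1 were 2 of these. Both belonged to 9 genes that were left out by name (SDI1, LSU1, LSU2, HAT2, SAUR16, BEE2, BEE3, BR6OX2 and MARD1). The 95 that remained made up 0.418% of all probe sets. They represent 78 probe sets with 1 gene name, 6 that match several genes and 11 without a name here, and no gene was represented more than once. Because signals of all 9 arrays chose them, their differences are given as descriptions without a test, and tests are reserved for genes outside the 95.

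CYP78A5, also called KLUH, and CYP78A7 are cytochrome P450 enzymes whose substrates in the plant are not settled, and AMP1 is a putative carboxypeptidase. Both kinds of protein restrain the shoot meristem, and mutants of either form leaves faster than wild type and have an enlarged meristem. The genes described here are therefore some of those whose signals on these arrays were lower in the double mutant than in a mutant of similar appearance. Transcript levels in whole seedlings also report how well plants are supplied with nutrients. The phosphate starvation genes, which respond to the phosphate status of the plant, and the genes of autophagy, the process that delivers cell contents to the vacuole for breakdown, are examples.

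Transcripts were measured in whole 10-day-old seedlings with Affymetrix ATH1 arrays. Each of the 3 genotypes, wild type Col-0, the double mutant cyp78a5,7 in the same background and the putative null allele amp1-13, was represented by 3 biological replicates. All seedlings grew in liquid half-strength MS medium with 1% sucrose and 1% DMSO in wells that held several seeds, at 26 °C with 16 h of light, so every group carried the solvent. The amp1-13 arrays had also served in an earlier study of the compound hyperphyllin. A whole seedling mixes all organs, so a lower signal can stand for fewer cells that express a gene or for less transcript in each cell, and these cannot be told apart.

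The 9 arrays had similar median signals, between 31.1 and 38.92. Bright probe sets ran higher on wild type arrays 1 and 3, whose 99th percentile of the signal was 2063 and 1997 compared with 1635 to 1779 on the other 7 arrays. After quantile normalization, which gives all arrays the same distribution, the conditions were met by 85 probe sets, 78 of which were among the 95. By the platform annotation and the study's list of genes changed in cyp78a5,7, only CYP78A7 of the mutated genes was matched to a probe set. Its mean signals were dim (wild type 11.2, cyp78a5,7 27.8, amp1-13 24.3). Its log2 difference between cyp78a5,7 and wild type was 0.66 (limma, adjusted p = 0.0535), so this probe set did not show the mutation. The study itself detected no CYP78A5 or CYP78A7 fragment by RT-PCR in seedlings of the respective single mutants. Few markers of organs and cell types had a named probe set, 1 of 6 for green tissue, 3 of 9 for roots, 1 of 7 for the shoot meristem and 3 of 6 for the stomatal lineage. The green tissue marker RCA (log2 difference 0.37) and the root markers PYK10 (0.10) and EXPA7 (-0.01) were not called in cyp78a5,7. In contrast, the root gene AGL12 fell by 1.24 in cyp78a5,7 and by 1.1 in amp1-13. AGL12 was named only through the study's list of genes changed in cyp78a5,7. The meristem gene CLV3 stayed at mean signals of 0.651, 2.59 and 4.5 in wild type, cyp78a5,7 and amp1-13, far below the median signal of an array.

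The 95 probe sets lay 1.00 to 2.13 log2 units below wild type in cyp78a5,7, with a median difference of -1.14. In amp1-13 their differences from wild type ranged from -0.24 to 0.25 with a median of -0.06, and 56 of them lay below and 39 above wild type. Most differences in cyp78a5,7 were near the limit, with 62 between 1 and 1.25 units, 24 between 1.25 and 1.5 and 9 beyond 1.5. On the signal scale, wild type means exceeded cyp78a5,7 means 2.03 to 6.52 times (median 2.54). Their median wild type signal was 165.0 compared with 35.4 for all probe sets, with a range from 27.9 to 2688, and a difference of 1 cannot be reached from a wild type signal below the offset of 16. Over all probe sets, the median log2 difference was -0.02 in cyp78a5,7 and 0.02 in amp1-13.

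**Figure D1:**
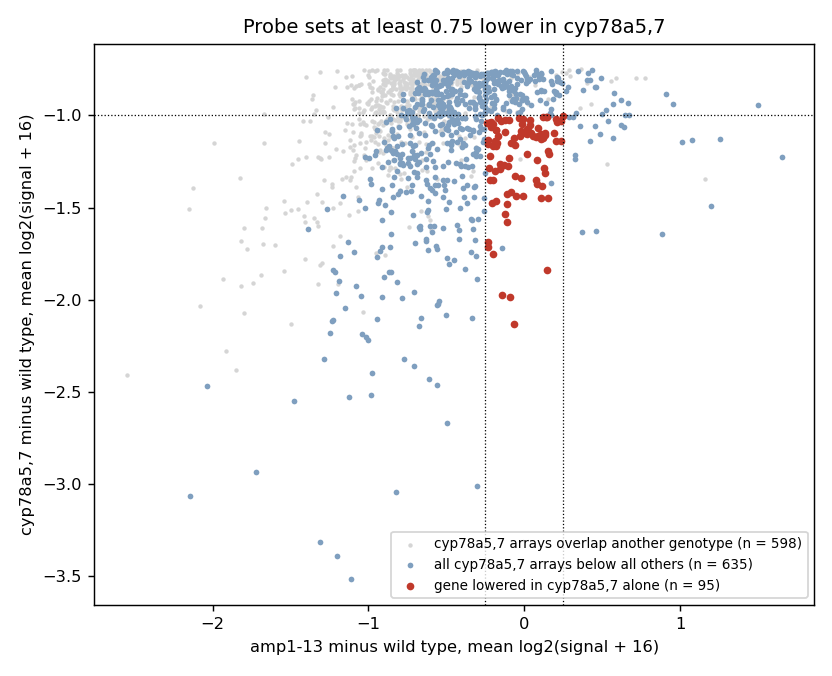
Difference of mean log2(signal + 16) from wild type in amp1-13 (x axis) and cyp78a5,7 (y axis) for probe sets at least 0.75 lower in cyp78a5,7, with dotted lines at the limits. The 95 members fill the field below -1 and within 0.25 (BEE2 and MARD1, left out by name, also lie there), other probe sets with all cyp78a5,7 arrays below all others (635) mostly lie towards lower amp1-13 values, and those whose cyp78a5,7 arrays overlap another genotype (598) are drawn in grey.

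The 95 probe sets formed a small part of all that were lower in cyp78a5,7. All cyp78a5,7 arrays lay below all wild type arrays, with a mean difference of at least 1, for 602 probe sets. For 206 of these the cyp78a5,7 arrays were not below all amp1-13 arrays. Of the other 396, 279 were also more than 0.25 lower in amp1-13 than in wild type, 20 were more than 0.25 higher in amp1-13, and 97 lay between. The division by amp1-13 thus cut through a continuous range of values, as the plot of the differences in both mutants shows. AT1G05140 was the last probe set inside both limits, with -1.004 in cyp78a5,7 and 0.248 in amp1-13. AT4G24090 lay just outside the first limit by less than the rounding, as did AT3G19000 (-0.995) and an unnamed probe set (-0.986). AT1G26800 (-0.253 in amp1-13), WCRKC1 (-0.258) and an unnamed probe set (-0.258) lay just outside the second limit. Those nearest inside were an unnamed probe set (-1.006) and AT5G54630 (-1.010) for the first, and AT3G42800 (-0.243) and AT3G43110 (0.237) for the second.

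The distance between cyp78a5,7 and the other arrays differed widely among the 95. The highest cyp78a5,7 array and the lowest of the other 6 were separated by a median of 0.47 log2 units. The gap exceeded 0.5 for 39 probe sets and was under 0.1 for 7. It was smallest for AT5G14940, OZF2 and AT1G19330 (0.02, 0.05 and 0.07), each with 1 amp1-13 array below the other arrays of that mutant and 1 cyp78a5,7 array above the others. Just outside, 2 unnamed probe sets met the other conditions but had a cyp78a5,7 array above the lowest other array, with gaps of -0.04 and -0.24 log2 units. In the limma fit over all probe sets, which calls a change at an adjusted p below 0.05 and at least 2-fold, 89 of the 95 were called lower in cyp78a5,7 than in wild type. The same call was made for 2.64% of all probe sets, and since this contrast chose the 95, nothing is read from the count. Likewise, 64 were called lower than in amp1-13 (1.76% of all) and none was called in amp1-13 against wild type (0.796% of all lower and 1.8% higher). None was called higher in cyp78a5,7 than in wild type (4.37% of all) or than in amp1-13 (2.15%). All cyp78a5,7 arrays lay below all other arrays for 8.27% of all probe sets.

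The 3 cyp78a5,7 replicates were not equally low. The median of the 95 log2 values lay 0.82 below the wild type mean on cyp78a5,7 array 1, 1.15 below it on array 2 and 1.48 below it on array 3. Array 3 held the lowest cyp78a5,7 signal for 68 of the 95 (71.6%), array 1 for 16 and array 2 for 11. The wild type arrays had medians of 0.10, -0.15 and 0.03 and the amp1-13 arrays of -0.18, 0.02 and 0.00. The median SD over replicates was 0.38 in cyp78a5,7 compared with 0.22 in wild type and 0.17 in amp1-13, whereas over all probe sets it was 0.16 in cyp78a5,7. Array 3 was also the farthest from wild type for 65.9% of the 279 probe sets that were lower in both mutants and for 56.2% of 731 probe sets raised in cyp78a5,7. Without array 3 the conditions were met by 50 probe sets, 46 of them among the 95, and without array 1 by 149, including 90 of the 95. The part of array 3 in the differences between genotypes was not tested beyond these counts.

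**Figure D2:**
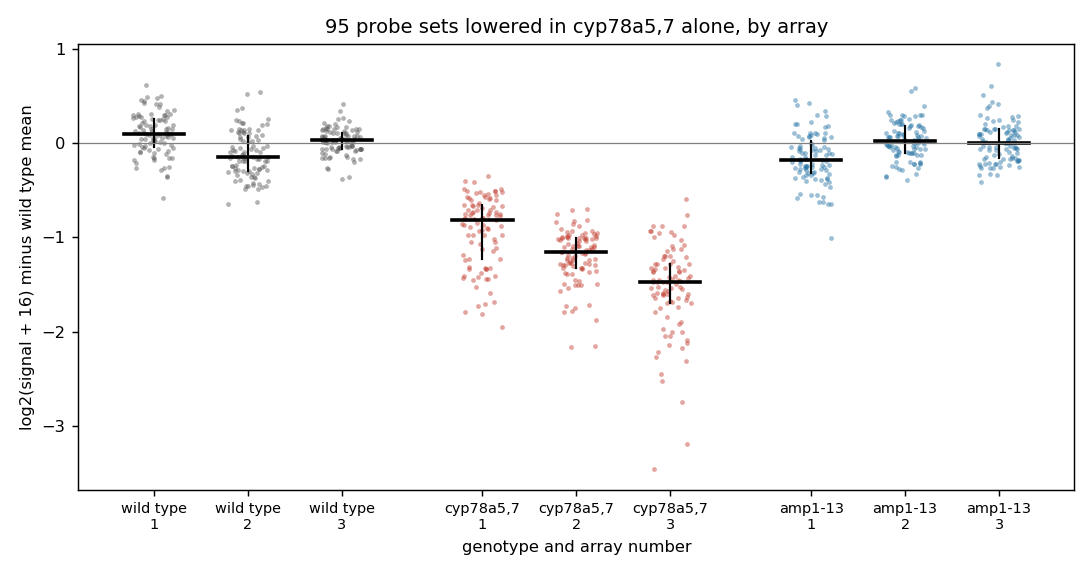
Log2(signal + 16) of the 95 probe sets minus their wild type mean on each of the 9 arrays, with horizontal bars at the median of each array and vertical lines from the 25th to the 75th percentile. The cyp78a5,7 medians are -0.82, -1.15 and -1.48, and those of the other 6 arrays lie between -0.18 and 0.10.

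The largest difference belonged to SRG3 (AT3G02040), also named GDPD1, a glycerophosphodiester phosphodiesterase that releases glycerol-3-phosphate from the breakdown products of phospholipids and is induced when phosphate is scarce. Its signals were 880.5, 1104 and 1036 in wild type, 477.3, 211.5 and 95.3 in cyp78a5,7, and 1058, 915.2 and 908.5 in amp1-13. Wild type and amp1-13 overlapped, while the cyp78a5,7 arrays were all lower and spread over 5.01-fold. The log2 difference was -2.13 in cyp78a5,7 and -0.06 in amp1-13.

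SRG3 was not the only gene of phosphate supply that was low. Outside the 95, the phosphate starvation list contained 6 measured genes, and all 6 were called lower in cyp78a5,7 than in wild type, with log2 differences from -2.29 to -1.39. They had names here only because the study listed them as changed in cyp78a5,7 on these arrays. Nothing is therefore read from their number. SPX1, which holds back the phosphate starvation transcription factor PHR1 when phosphate is ample and is itself strongly induced by starvation, had signals of 3838, 3109 and 4163 in wild type, 1408, 668.2 and 290.9 in cyp78a5,7, and 2234, 2793 and 2450 in amp1-13. It fell by 2.29 ± 0.47 (limma SE, adjusted p = 0.00908, n = 3 arrays for each genotype). Its 3 cyp78a5,7 arrays were far apart, but the highest of them was still below all other arrays. SPX2, a close relative with the same role, fell by 1.39 ± 0.18 (limma, adjusted p = 0.0015). G3PP1, a glycerol-3-phosphate permease, had 665.7, 759.2 and 686.6 in wild type, 354.5, 196.5 and 103.9 in cyp78a5,7, and 531.8, 581.6 and 575.1 in amp1-13, and fell by 1.75 ± 0.33 (limma, adjusted p = 0.00717). The kinases of phosphoenolpyruvate carboxylase, PPCK1 and PPCK2, fell by 1.48 ± 0.21 and 1.56 ± 0.25 (limma, adjusted p = 0.00219 and 0.00366). PAP3, a purple acid phosphatase, fell by 1.96 ± 0.28 (limma, adjusted p = 0.00208). These 6 calls were kept when any 1 array was left out.

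The same 6 genes were closer to wild type in amp1-13, where their differences ranged from -1.28 to -0.25. Only PAP3 was called lower there (-1.28, limma, adjusted p = 0.023), a call lost without wild type array 1 or 3 or any amp1-13 array (adjusted p 0.0567 to 0.0941). Tested directly between the mutants, 4 were called lower in cyp78a5,7: SPX1 (-1.92 ± 0.47, adjusted p = 0.0317), G3PP1 (-1.5 ± 0.33, adjusted p = 0.0233), PPCK1 (-1.14 ± 0.21, adjusted p = 0.0116) and PPCK2 (-1.23 ± 0.25, adjusted p = 0.0175; all limma). Each of these 4 calls was lost without certain single arrays. Where that happened the difference stayed similar for SPX1 (-1.98 to -1.86), G3PP1 (-1.54 to -1.47) and PPCK1 (-1.06) while the adjusted p passed the threshold, and for PPCK2 it was -0.89 without cyp78a5,7 array 3. On cyp78a5,7 array 3, SRG3 and all 6 other genes had their lowest signal. Because all 6 were named only through the study's list of genes changed in cyp78a5,7 on the same arrays, unchanged phosphate genes could not be counted. That choice also favours a larger difference in cyp78a5,7 than in amp1-13. The remaining 19 genes of the list had no named probe set here.

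ATG8E (AT2G45170) is 1 of the 9 Arabidopsis ATG8 genes, whose small ubiquitin-like proteins are attached to the membrane of the growing autophagosome. Its signals were 363.4, 230.2 and 324.6 in wild type, 102.1, 106.3 and 127.1 in cyp78a5,7, and 270.7, 329.3 and 407.1 in amp1-13. The cyp78a5,7 arrays lay close together, spreading only 1.24-fold, and array 3 was the highest of them. The log2 difference was -1.31 in cyp78a5,7 and 0.13 in amp1-13.

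The 8 other ATG8 genes were all named by the platform annotation and thus not selected by their change. All cyp78a5,7 arrays lay below all wild type arrays for 7 of the 8, and 4 were called lower, a call made for 2.64% of all probe sets. How many of all probe sets lay apart from wild type in this way was not counted, and nothing is read from either count. ATG8F had signals of 1766, 1459 and 1815 in wild type, 687.0, 599.3 and 356.8 in cyp78a5,7, and 980.7, 1126 and 1212 in amp1-13, and fell by 1.52 ± 0.21 (limma, adjusted p = 0.00196). ATG8C fell by 1.14 ± 0.18, ATG8D by 1.1 ± 0.21 and ATG8I by 1.07 ± 0.12 (limma, adjusted p = 0.00333, 0.00735 and 0.00066). ATG8G (-0.99) was just short of the 2-fold limit and passed it when arrays were centred on the 75th percentile (-1.02), without wild type array 2 (-1.1) and without cyp78a5,7 array 1 (-1.06) or 3. ATG8A was at -0.84, ATG8H was at -0.60, and ATG8B at -0.12. The calls of ATG8D and ATG8I were lost when 1 of certain arrays was left out, ATG8D at -0.93 without wild type array 1 and at -0.99 without cyp78a5,7 array 1, ATG8I at -1.0 without cyp78a5,7 array 3.

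In amp1-13 most of the family was below wild type. For 6 of the 8 other ATG8 genes, all amp1-13 arrays lay below all wild type arrays. This was likewise not counted over all probe sets, and nothing is read from the number. The amp1-13 differences of the 8 ranged from -0.96 for ATG8A to -0.26 for ATG8B. None of the 8 reached the 2-fold limit in amp1-13, and ATG8A came nearest (limma, adjusted p = 0.00695). Without wild type array 2 both ATG8A (-1.03) and ATG8D (-1.17) were called, as was ATG8A without amp1-13 array 3 (-1.11) and with arrays centred on the 75th percentile (-1.03). ATG8B and ATG8H overlapped wild type in amp1-13, as did ATG8E, whose mean there had to lie near wild type to be selected. Only ATG8F was called lower in cyp78a5,7 than in amp1-13 (-1.1 ± 0.21, limma, adjusted p = 0.0135). The 7 measured probe sets of other autophagy genes, which encode the ATG1 and ATG13 initiation proteins, the conjugating enzyme ATG3 and the protease ATG4, ranged from -0.28 to 0.19 in cyp78a5,7 and, with amp1-13, from -0.13 to 0.12, and none was called.

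**Figure D3:**
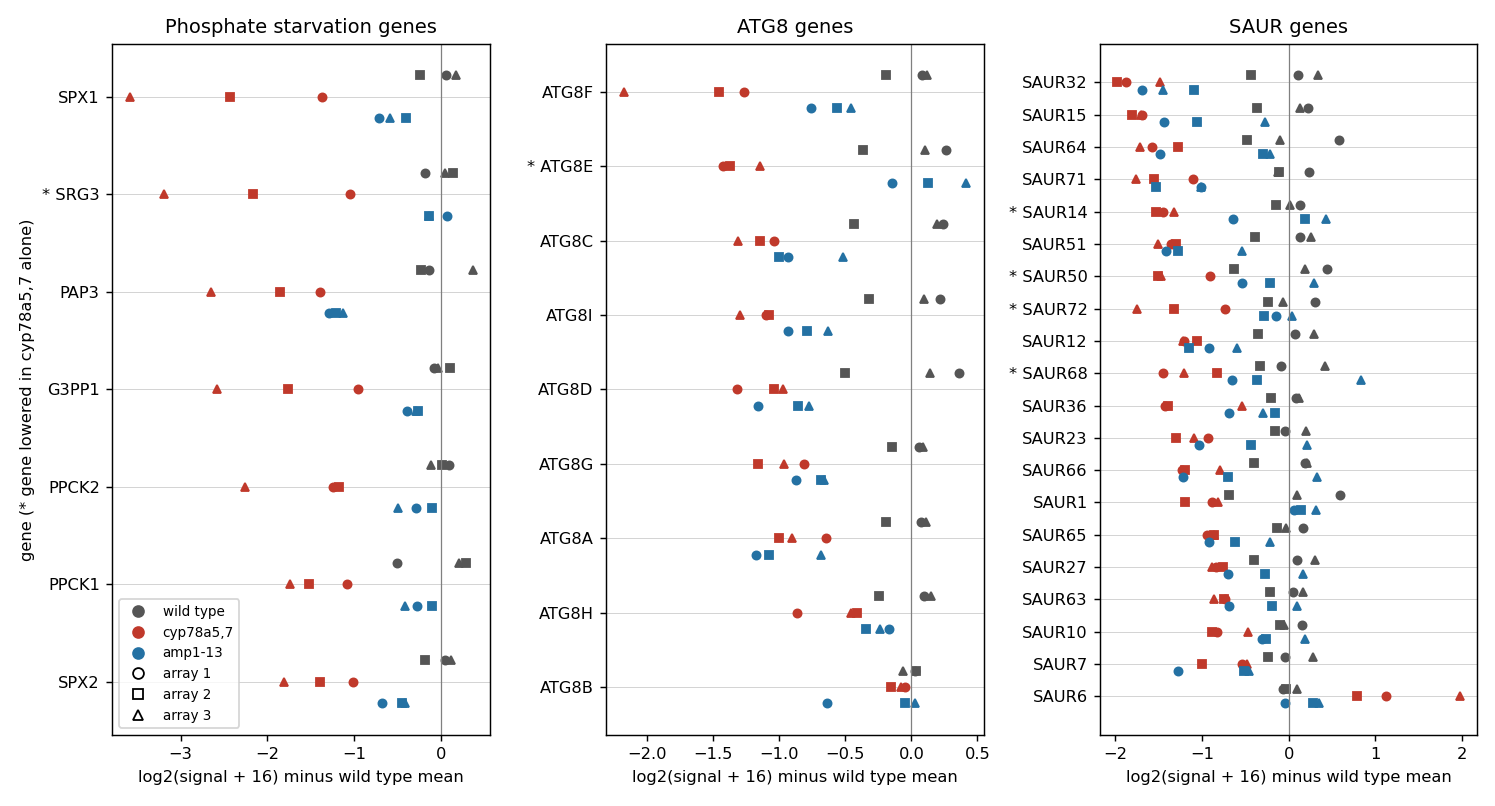
Log2(signal + 16) minus the wild type mean on each array for the measured phosphate starvation, ATG8 and SAUR genes, unnormalized, with genotypes by colour, arrays by shape and members of the 95 marked by an asterisk. The amp1-13 points of ATG8E surround the wild type mean, those of 6 other ATG8 genes lie below all wild type points, and SAUR6 alone is raised in cyp78a5,7.

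Further genes of breakdown and transport showed the pattern. GAMMA-VPE (AT4G32940), a vacuolar processing enzyme that matures proteins in the vacuole of vegetative tissue, was the most abundant of the 95 by signal. It had 2709, 2953 and 2403 in wild type, 1913, 1329 and 654.7 in cyp78a5,7, and 2157, 2651 and 2297 in amp1-13, a log2 difference of -1.16 in cyp78a5,7 and -0.18 in amp1-13. It did not meet the conditions after quantile normalization. Its relatives ALPHA-VPE, BETA-VPE and DELTA-VPE had differences of -0.25, 0.11 and 0.17 in cyp78a5,7, and none was called. AT4G16190, annotated with proteolysis, was also abundant, with 2730, 2018 and 2222 in wild type, 1566, 1115 and 698.1 in cyp78a5,7, and 2192, 2844 and 2598 in amp1-13. It too did not meet the conditions after quantile normalization. NRT1.9 (AT1G18880), a nitrate transporter of the phloem, lay 1.11 below wild type, with 91.8, 69.4 and 50.3 in cyp78a5,7 and 138.0 to 199.4 in wild type. Of the 14 measured genes of the nitrate list, to which NRT1.9 did not belong, 12 were called higher and 1 lower in cyp78a5,7. Of all probe sets, 4.37% were called higher and 2.64% lower. As 13 of the 14 were named only by the study's list of changed genes, nothing is read from these counts.

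Regulators of transcription were the largest role group among the 37 members that could be assigned a role, with 9 genes between -1.72 and -1.01. NF-YB3 (AT4G14540), a subunit of the NF-Y complex that binds CCAAT boxes and promotes flowering in long days, had signals of 145.3, 92.1 and 109.9 in wild type, 36.2, 22.8 and 14.6 in cyp78a5,7, and 91.4, 97.4 and 95.1 in amp1-13. Its log2 difference was -1.72 in cyp78a5,7 and -0.23 in amp1-13, near the edge of the permitted range, and it dropped out under quantile normalization. Its close relative NF-YB2 lay below wild type in both mutants by less than 2-fold (-0.81 and -0.78), and NF-YA7 fell by 2.03 ± 0.23 in cyp78a5,7 and by 1.19 in amp1-13 (limma, adjusted p = 0.000844 and 0.0163). The amp1-13 call of NF-YA7 was lost without wild type array 1 or 3 or amp1-13 array 1 or 3 (adjusted p 0.0522 to 0.0729), and no direct difference between the mutants was called for either gene. NF-YA7 and NF-YB2 were named through the study's list of changed genes.

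AT5G61590, a factor of the ERF family known as DEWAX that lowers wax synthesis in the dark, had 942.7, 522.9 and 712.1 in wild type, 170.5, 202.3 and 363.2 in cyp78a5,7, and 470.6, 730.3 and 782.7 in amp1-13. Here array 3 was the highest of the cyp78a5,7 arrays, and the log2 difference was -1.54. NAC3 (AT3G29035), a NAC factor that promotes leaf senescence, had 160.1, 130.5 and 149.2 in wild type, 52.8, 41.6 and 37.2 in cyp78a5,7, and 139.7, 183.3 and 154.6 in amp1-13. Its difference was -1.45 in cyp78a5,7 and 0.10 in amp1-13. ERF73 (AT1G72360), also named HRE1, a factor of the response to low oxygen, had 394.8, 338.8 and 411.2 in wild type, 103.9, 149.9 and 200.1 in cyp78a5,7, and 318.1, 453.7 and 496.1 in amp1-13 (-1.29). The remaining regulators were AT2G28200 (-1.35), TRFL1 (-1.29), a protein related to telomere-binding factors, AT1G19000 (-1.11), the ERF family member ESE3 (-1.09) and AT5G54630 (-1.01). AT2G28200 had the most uniform cyp78a5,7 signals of all 95, 22.6, 24 and 23.9, compared with 74.7 to 92.5 in wild type.

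Genes of protein ubiquitination followed. RHA1B (AT4G11360), a RING-H2 finger protein of the kind that serves as a ubiquitin ligase, had 447.3, 371.2 and 392.2 in wild type, 123.3, 97.8 and 85.3 in cyp78a5,7, and 473.8, 531.9 and 350.3 in amp1-13, a difference of -1.84. KMD4 (AT3G59940), an F-box protein of the KISS ME DEADLY family that targets activators of the cytokinin response for degradation, had 301.8, 175.2 and 189.7 in wild type, 50.2, 83.6 and 90.6 in cyp78a5,7, and 246.5, 266.8 and 196.3 in amp1-13. Its difference was -1.38 in cyp78a5,7 and 0.11 in amp1-13. The ubiquitin-conjugating enzyme UBC17 (-1.14), AT3G13672, also named SINA2 (-1.13), and the F-box protein FBS2 (-1.04) completed the group. UBC16 and UBC18, relatives of UBC17, had differences of -0.09 and 0.56 and were not called.

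**Figure D4:**
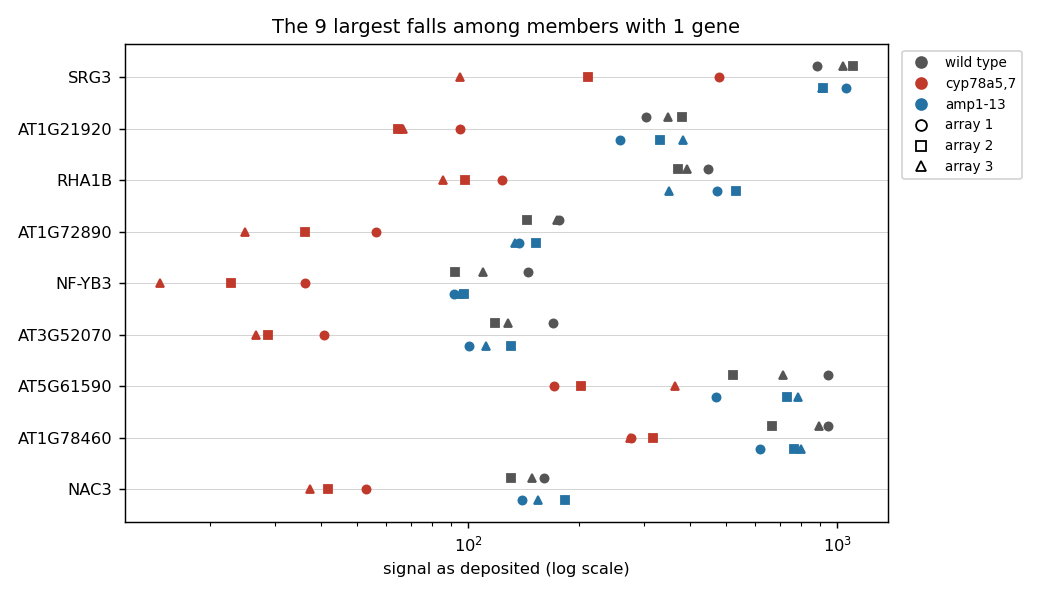
Deposited signal (x axis, log scale) on each of the 9 arrays for the 9 members with 1 gene and the largest differences, with genotypes by colour and arrays by shape. For each of these genes the 3 cyp78a5,7 points lie below the 6 others, and for SRG3 they spread from 95.3 to 477.3.

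Growth-related genes contributed 6 members between -1.44 and -1.13, of which 4 were SAUR genes, small auxin up RNAs whose products promote cell expansion. SAUR14 (AT4G38840) had 152.4, 123.4 and 139.5 in wild type, 40.2, 37.2 and 45.6 in cyp78a5,7, and 82.7, 159.2 and 191.7 in amp1-13. The cyp78a5,7 arrays were close together and the amp1-13 arrays spread around wild type, with a difference of -1.44 in cyp78a5,7 and -0.01 in amp1-13. SAUR50 (-1.29), SAUR72 (-1.27) and SAUR68 (-1.16) were the others. SAUR68 was dim, with 35.7, 27.6 and 57 in wild type, 4.11, 14.9 and 7.71 in cyp78a5,7, and 18.9, 26.6 and 81.8 in amp1-13. RTFL8 (AT2G39705), a small polypeptide of the ROTUNDIFOLIA family that limits cell proliferation in organs when overproduced, had 192.4, 202.4 and 175.8 in wild type, 47, 69.1 and 92.1 in cyp78a5,7, and 117.6, 207.9 and 180.0 in amp1-13 (-1.30). PME1 (AT4G12390), listed as a pectin methylesterase inhibitor, lay 1.13 below wild type.

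Most other SAUR genes were low in cyp78a5,7 as well. Among 16 outside the 95, all cyp78a5,7 arrays lay below all wild type arrays for 15, which was not counted over all probe sets. Of the 16, 8 were called lower and 1 higher, compared with 2.64% and 4.37% of all probe sets. Without wild type array 3, 3 of the 8 (SAUR23, SAUR36 and SAUR64) lost their calls (limma, adjusted p = 0.0736, 0.0524 and 0.0574), with differences of -1.03, -1.07 and -1.6. SAUR23 also lost its call without wild type array 1 or cyp78a5,7 array 2. The call of SAUR36 was also lost without cyp78a5,7 array 1 (-0.97) or 2, and that of SAUR64 without wild type array 1 or cyp78a5,7 array 3. SAUR32 fell by 1.76 ± 0.22, SAUR15 by 1.75 ± 0.29, SAUR71 by 1.49 ± 0.21 and SAUR12 by 1.19 ± 0.22 (limma, adjusted p = 0.00122, 0.00413, 0.00189 and 0.00579). In amp1-13, 3 were called lower, SAUR32 (-1.40, limma, adjusted p = 0.00791), SAUR71 (-1.27, adjusted p = 0.00899) and SAUR51 (-1.16, adjusted p = 0.0269). SAUR51 lost its amp1-13 call without wild type array 1 or 3 or amp1-13 array 1 or 2 (limma, adjusted p 0.0902 to 0.106), and SAUR12 and SAUR15 gained one without wild type array 2 (-1.22 and -1.24) or amp1-13 array 3 (-1.13 and -1.33). SAUR6 was the exception, with a mean signal of 133.7 in cyp78a5,7 against 41.3 in wild type and 50 in amp1-13, and rose by 1.25 ± 0.26 in cyp78a5,7 (limma, adjusted p = 0.0107). That call was lost without cyp78a5,7 array 3, where the difference was 0.91. Only SAUR10 (-0.74, not called) of the 16 was named by the platform annotation. The other 15 came from the study's list of genes changed in cyp78a5,7, so nothing is read from how many were low. Probes of such similar genes may also share transcripts.

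RTFL8 was the only member on the list of signalling peptides. Of 10 other peptide genes, 9 of them annotated, 5 were called lower in cyp78a5,7 and none in amp1-13. Of all probe sets, 2.64% were called lower in cyp78a5,7, and 0.796% lower and 1.8% higher in amp1-13. Because the list was chosen with results of these arrays known, nothing is read from these counts. RALF23, a rapid alkalinization factor that restrains growth, averaged 347.2 in cyp78a5,7 against 1044 in wild type and 511.9 in amp1-13, and fell by 1.41 ± 0.20 (limma, adjusted p = 0.00206). CLE27 fell by 1.35 ± 0.18, RALFL27 by 1.21 ± 0.19 and RALFL32 by 1.46 ± 0.28 (limma, adjusted p = 0.00172, 0.0033 and 0.00707). No peptide gene was called different between the mutants. In amp1-13 RALF23 was at -0.82 and CLE27 at -0.97, values that lie outside the range allowed for the 95. Without wild type array 2, RALF23 (-1.08), CLE27 (-1.06), RALFL27 (-1.11) and RALFL32 (-1.27) were called lower in amp1-13 too, and CLE27 also without wild type array 1 (-1.02) or amp1-13 array 1 (-1.01) or 3 (-1.09).

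Chloroplast and signalling genes made up smaller groups. CHLM (AT4G25080), the methyltransferase of magnesium protoporphyrin IX in chlorophyll synthesis, had 717.8, 384.9 and 548.1 in wild type, 347.4, 257.0 and 179.1 in cyp78a5,7, and 558.8, 639.9 and 659.2 in amp1-13 (-1.03). It dropped out under quantile normalization. HEMA1, which acts earlier in the pathway, rose instead, by 1.11 in both mutants (limma, adjusted p = 0.0109 in cyp78a5,7 and 0.0217 in amp1-13), and PORB was at 0.25 and not called. The calls of HEMA1 were lost without cyp78a5,7 array 1 (0.91) in cyp78a5,7 and, in amp1-13, without wild type array 1 or 3 or amp1-13 array 1 or 2 (adjusted p 0.0545 to 0.0873). ENH1 (-1.1), a rubredoxin-like protein of the chloroplast, and SECE1 (-1.02), a subunit of the thylakoid protein translocase, were the other chloroplast members. Among signalling genes, AT1G72890, annotated with defence response, had 176.4, 144.6 and 174.3 in wild type, 56.2, 36.1 and 24.9 in cyp78a5,7, and 137.1, 152.7 and 134.1 in amp1-13 (-1.75). The calcium sensor CBL10, which acts in salt tolerance, lay 1.09 below wild type, while its relative CBL1 was at 1.38 and not called (limma, adjusted p = 0.0529), but was called at 1.87 without cyp78a5,7 array 3. OZF2, a zinc finger protein, lay at -1.14 in cyp78a5,7 and -0.19 in amp1-13, and its relative OZF1 fell by 1.29 ± 0.17 in cyp78a5,7 with -0.77 in amp1-13 (limma, adjusted p = 0.00143 and 0.0229). The protein kinase gene ASG5 was at -1.16. Of the relatives in these groups, HEMA1, CBL1 and OZF1 were named only through the study's list of genes changed in cyp78a5,7.

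Of 4 metabolic and lipid transfer genes, GLTP3 (-1.33), a glycolipid transfer protein, had the largest difference, with 119.6, 70.5 and 127.4 in wild type, 28.8, 33.4 and 31.9 in cyp78a5,7, and 112.5, 92.2 and 90.8 in amp1-13. The glycosyltransferase UGT85A5 (-1.11), the cytochrome P450 CYP71B28 (-1.09) and the flavin monooxygenase FMO (-1.04) followed. The measured genes of the UGT85A family did not move together. UGT85A1 rose by 1.79 in cyp78a5,7 and by 1.44 in amp1-13 (limma, adjusted p = 0.00511 and 0.0234). It was named only through the study's list of genes changed in cyp78a5,7. In cyp78a5,7 UGT85A2 was at 0.75, UGT85A3 at 0.04 and UGT85A4 at -0.92, none of which reached 2-fold. The amp1-13 call of UGT85A1 was lost without wild type array 3 or any amp1-13 array (adjusted p 0.0562 to 0.0952).

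A further 41 members had a gene name and no role assigned here, with differences between -1.99 and -1.0. AT1G21920 was second among all 95, with 304.0, 379.5 and 347.0 in wild type, 95.3, 64.4 and 66.6 in cyp78a5,7, and 258.4, 331.6 and 381.0 in amp1-13 (-1.99). AT3G52070 had 169.3, 118.1 and 128.0 in wild type, 40.6, 28.6 and 26.6 in cyp78a5,7, and 100.7, 130.9 and 112.1 in amp1-13 (-1.69). It dropped out under quantile normalization. AT1G78460 had 942.3, 665.9 and 890.5 in wild type and 275.7, 317.2 and 274.1 in cyp78a5,7, where its 3 arrays agreed to within 1.16-fold, and 619.2 to 799.6 in amp1-13 (-1.46). AT4G05070 (-1.43) and the abundant AT5G38980 (-1.21) showed the same separation. For AT5G38980, the signals were 1462, 1276 and 1279 in wild type, 810.7, 682.9 and 330.0 in cyp78a5,7, and 1244, 1396 and 1427 in amp1-13. CCL (log2 difference -1.15), a CCR-like gene, had 2728, 2470 and 2170 in wild type, 1843, 1208 and 582.2 in cyp78a5,7, and 1941, 2308 and 2250 in amp1-13. Like GAMMA-VPE, NF-YB3, AT4G16190, CHLM and AT3G52070, it was left out after quantile normalization. So were FBS2, AT3G15570, AT5G14940 and AT3G42800. The 17 probe sets without a single gene name ranged from -1.97 to -1.01. For 1 of them, the cyp78a5,7 signals spread from 12.7 to 113.1, an 8.93-fold range.

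The members were scattered over the genome. In the TAIR10.1 gene order of RefSeq, the 78 named genes lay on chromosomes 1 to 5 in numbers of 20, 7, 21, 18 and 12. As shares, these were 25.6, 8.97, 26.9, 23.1 and 15.4%, compared with 26.4, 15.3, 20.4, 14.6 and 23.4% of all named genes. The median gene length was 1595 bases, compared with 2115 for all named genes. None of the 82 measured neighbouring probe sets was itself a member, and their median difference in cyp78a5,7 was 0.01. Of these neighbours, 7 were called lower and 3 higher in cyp78a5,7, compared with 2.64% and 4.37% of all probe sets. Among the called neighbours, G3PP1, SAUR15, ERF104 and CDPK1 were named only through the study's list of genes changed in cyp78a5,7. Nothing is therefore read from these counts.

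Some neighbours belonged to the families described above. ATG8I lies next to the member AT3G15570, and SAUR15 next to SAUR14. The neighbour of RTFL8, the expansin gene EXPA4, fell by 1.24 ± 0.11 (limma, adjusted p = 0.000352). ERF104, next to AT5G61590 and of the same factor family, differed in direction between the mutants. Its signals were 274.7, 188.6 and 175.9 in wild type, 134.8, 65.3 and 72 in cyp78a5,7, and 539.2, 400.7 and 446.1 in amp1-13, and the 3 genotypes did not overlap. It fell by 1.13 ± 0.24 in cyp78a5,7 and rose by 1.1 ± 0.24 in amp1-13 (limma, adjusted p = 0.0119 and 0.0244). The difference between the mutants was -2.23 ± 0.24 (limma, adjusted p = 0.00174) and remained called when any 1 array was left out, whereas the call in cyp78a5,7 was lost without wild type array 1 (-0.93) or cyp78a5,7 array 2 (-0.97), and that in amp1-13 without wild type array 3 (0.99) or any amp1-13 array (adjusted p 0.0627 to 0.0913). CDPK1 next to NRT1.9 (1.26), AT1G72900 next to AT1G72890 (1.5) and SAG101 next to AT5G14940 (1.1) rose in cyp78a5,7 (limma, adjusted p = 0.00101, 0.0115 and 0.000576).

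Across 18 gene lists for hormones, growth, nutrients and development, 178 of 398 genes were measured. Of the 95 probe sets, 8 (8.42%) belonged to a list, compared with 0.787% of all probe sets, namely SRG3, ATG8E, NF-YB3, RTFL8 and the 4 SAUR genes. The lists were chosen with results of these arrays known, and 7 of the 8 were named through the study's list of changed genes, so nothing is read from that share. Outside the 95, 163 probe sets of the lists were measured, and 67 were called lower and 20 higher in cyp78a5,7. Among the 73 named by the annotation, 20 were called lower and 5 higher. Their median difference was -0.43 in cyp78a5,7, -0.18 in amp1-13 and -0.24 between the mutants. Of all probe sets, 2.64% were called lower and 4.37% higher in cyp78a5,7. Because the lists were chosen with results known, nothing is read from these counts either.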

How the data were processed

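Whole seedlings of 3 genotypes were measured on 9 Affymetrix ATH1 arrays. The deposited values are MAS5 signal intensities, which the authors made on a linear scale (MAS5 version not given in the sources used here). Each array had been scaled to a mean of 100 without its lowest and highest 2% of values, with no further normalization. In the study itself the raw arrays were summarized by RMA with quantile normalization in ArrayStar, which cannot be computed from these summaries. The files hold no detection calls, and the lowest signal was 0.0121.

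After removal of 64 control probe sets, 22746 were used. An offset of 16, added before the log2, shrinks the differences of dim probe sets. The 95 members were found on log2(signal + 16) without further normalization. Calls came from limma 3.58.1 in R 4.3.3 on quantile-normalized log2 values of all 9 arrays, with genotype as the only term (6 residual and 2.69 prior degrees of freedom), and two-sided p-values were adjusted over all of these probe sets by the Benjamini-Hochberg method. A call needed an adjusted p below 0.05 and a change of at least 2-fold. Simulated data with known changes were used to test the limma step. Python 3.11.15 with matplotlib 3.10.9 drew the figures. Differences of members are on the unnormalized scale and those of other genes on the normalized scale.

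The platform annotation gave 1 gene for 13513 probe sets, and the study's list of changed genes named 813 more. That list holds genes selected as changed on these arrays and is not independent evidence of their direction. Gene order came from RefSeq (TAIR10.1). Members, lists, roles and relatives were chosen with earlier results of these data known. Described members with 1 gene were the 12 with the largest difference, the 5 with the highest wild type signal, members on a list and those nearest the limits, except that 1 gene is not reported here. Outside the members, up to 4 genes per list with the smallest adjusted p and close paralogs were described. Other named genes (role groups, relatives and neighbours) were chosen after their values were seen. Alternatives were other scalings, offsets of 1 and 64, other limits, leaving out the 30% dimmest probe sets, a variance trend, the replicate number as a block and leaving out each array.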

Additional observations from a re-analysis of the deposited data

Results flagged for a closer look

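Among the described relatives, list genes and neighbours of the 95, the difference between the mutants was itself called by limma, at an adjusted p below 0.05 and at least 2-fold, for 9 genes. Over all probe sets, 401 were called lower and 490 higher in cyp78a5,7 than in amp1-13. The phosphate genes SPX1 (-1.92), G3PP1 (-1.5), PPCK2 (-1.23) and PPCK1 (-1.14) were lower in cyp78a5,7 than in amp1-13. ATG8F was at -1.10 and SAUR1 at -1.11, the latter with a mean signal of 46.9 in cyp78a5,7 against 114.0 in wild type and 121.9 in amp1-13. SAUR6 was higher in cyp78a5,7 (1.15). Of the neighbouring genes, ERF104 was at -2.23 and AT3G52060, next to AT3G52070, at -1.22 (limma, adjusted p = 0.0264).

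All of these calls but that of ERF104 were lost in some fits with 1 array left out. SPX1 lost its call in 6 of 9 such fits (difference -1.98 to -1.86, adjusted p 0.052 to 0.112), G3PP1 without cyp78a5,7 array 2 and without each amp1-13 array (-1.54 to -1.47, adjusted p 0.0586 to 0.0887), and PPCK1 without amp1-13 array 2 (-1.06, adjusted p = 0.0566). PPCK2 lost it without cyp78a5,7 array 3 (-0.89) and amp1-13 arrays 1 and 2 (adjusted p = 0.052 and 0.0768), and ATG8F without cyp78a5,7 array 3 (-0.83) and amp1-13 arrays 2 and 3 (adjusted p = 0.0597 and 0.0557). AT3G52060 lost it in 5 of 9 fits (-1.32 to -1.1), SAUR6 without cyp78a5,7 array 3 (0.81) and each amp1-13 array, and SAUR1 in 7 of 9 fits (-1.19 to -1.0). All are limma values, and the cause was not tested.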

How the results depend on the processing

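The number of members depended on the offset and the limits. It was 208 with an offset of 1 (85 of the 95 among them) and 27 with an offset of 64 (25 of the 95), 220 and 9 with a difference of at least 0.75 and 1.5, and 56 and 192 with a range of 0.15 and 0.5 in amp1-13. Leaving out 1 array gave 50 to 149. Of the 95, 70 were kept under both other scalings, and 17 under both scalings and both offsets. For probe sets called lower in cyp78a5,7 than in wild type, 601 became 1117 and 215 with offsets of 1 and 64, 3075 by the adjusted p alone and 438 to 900 with 1 array left out. Those lower than in amp1-13, 401, became 155 with an offset of 64, 1418 by the adjusted p alone and 263 to 595 with 1 array left out. The 591 called in amp1-13 became 888 and 242 with offsets of 1 and 64, 2734 by the adjusted p alone and 326 to 923 with 1 array left out (lowest without wild type array 3, highest without array 2). Called list genes outside the members, 87 in cyp78a5,7, 29 in amp1-13 and 27 between the mutants, became 44, 13 and 15 with an offset of 64, 25, 7 and 8 by the annotation alone, and 71 to 98, 12 to 42 and 15 to 31 with 1 array left out. No result reversed. Of 2868 values for 60 named genes outside the members, 114 lost and 64 gained a call.

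Arrays that share a replicate number correlated at -0.119 to 0.161 after the genotype means were removed, compared with -0.174 to 0.247 for arrays with other numbers. Of the 9 arrays, 5 correlated best with one of their own number. Whether such arrays shared more than a number was not tested. With the replicate number as a block, 595 probe sets were called lower in cyp78a5,7 than in wild type, 370 lower than in amp1-13, and 579 in either direction in amp1-13. In that fit SPX1 lost its call between the mutants (limma, adjusted p = 0.0509) and SAUR66 gained one in cyp78a5,7 (limma, adjusted p = 0.0353). The 3 arrays for each genotype limit the precision, and low signals have no detection call. A planned comparison of promoter motifs was not run because no sequences were used here.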
